A study of Mus musculus with 6 samples.

Results

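The genes described are 10 components of protein folding in the endoplasmic reticulum (ER) and of the unfolded protein response, chosen by symbol from a table of 25491 genes: the chaperones Hspa5 and Hsp90b1, the lectin chaperones Calr and Canx, the disulfide isomerases Pdia4 and Pdia6, and the transcription factors Xbp1, Atf4, Atf6 and Creb3l1. Each symbol matched 1 row, and all 10 passed the filter on low counts. RNA was measured in mesenchymal progenitor cells, the stromal cells of marrow that give rise to bone, cartilage and fat, sorted from the bone marrow of C57BL/6J mice aged 14 weeks. Both groups had received a sublethal dose of 7 Gy 6 weeks earlier, so neither holds unirradiated cells. There were 3 wild type libraries and 3 Lama4-/- libraries; Lama4 encodes a laminin chain of vessel and marrow basement membranes. The gate took cells without surface CD45, TER119, CD31, CD44 and SCA1 and with CD51. The labels do not tie each library to 1 animal, and p-values therefore rest on a spread between libraries that may in part be technical.

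Proteins that enter the ER are folded by lumenal chaperones, held by lectin chaperones that read their sugar chains, and cross-linked by disulfide isomerases. When unfolded proteins build up, the membrane sensors IRE1 (Ern1), PERK (Eif2ak3) and ATF6 start the unfolded protein response: IRE1 cuts a short intron out of Xbp1 mRNA, PERK favours translation of Atf4, and ATF6 is cut by Golgi proteases into a soluble transcription factor. Bone-forming stroma secretes large amounts of collagen and carries a heavy ER load. Creb3l1 (OASIS), a relative of ATF6 that is activated by the same kind of cleavage, is known for driving type I collagen expression in osteoblasts.

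Library totals ran from 6263830 to 15663957 counts, the smallest being wild type replicate 2. Lama4 itself held 607, 236 and 438 counts in wild type replicates 1 to 3 and 0 counts in each Lama4-/- library, where a count of 0 allows up to 3 counts. It was the only gene of 14465 tested to pass an adjusted p of 0.05 (edgeR quasi-likelihood test, Benjamini-Hochberg adjustment over all tested genes, adjusted p = 0.0497). All 9 marrow stroma markers were in the table, and their summed level in CPM (a gene's count scaled to the library's normalised total) was 42001 to 56209 in wild type against 26230 to 73911 in Lama4-/-. That sum is mostly Col1a1 and Cxcl12, whose groups overlapped. Of the other 7, Lepr, Pdgfra, Pdgfrb, Kitl and Itgav were lower in every Lama4-/- library than in every wild type library; Lepr was at 203 to 443 against 68.8 to 167 CPM. Itgav, which encodes the CD51 that the gate required, was at 95.9 to 139 against 44.5 to 73.0 CPM. The part of these stromal differences in the values below was not tested. Nor was the part in them of the trend on transcript length described further below. Cd44, a marker the gate excluded at the cell surface, was between 53.2 and 152 CPM in every library. Haemoglobin and other red cell markers (6 of 6 found) summed to 221 to 1444 CPM in wild type against 1192 to 3390 CPM in Lama4-/-, and neutrophil and monocyte markers (8 of 8) to 34.8 to 116 against 111 to 751 CPM. Of 11 plasma cell and B cell markers, a lineage rich in Xbp1, 8 were in the table. Jchain, Mzb1 and Igkc did not exceed 1.94 CPM in any library. Ighm ran from 0 to 13.4 CPM, with both ends in Lama4-/-, and Prdm1 reached 6.68 CPM in wild type replicate 2. That list summed to 76.8 to 156 CPM in wild type against 100.4 to 116 CPM in Lama4-/-, most of it Sdc1, which stromal cells also make.

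The sequences through which this response is known to act are shown first, for those of the 10 genes where they could be searched. The ER stress response element (ERSE, the blocks CCAAT and CCACG separated by 9 bases of any kind) is the site through which ATF6 and XBP1, with NF-Y, switch on chaperone genes. It was searched on both strands in RefSeq promoter windows (GRCm38.p6), 250 bases before to 50 after each start; 8 of the 10 genes had a window. The element was found in 39 of 32851 windows (0.119%), belonging to 37 genes, and 5 of those genes were Hspa5, Hsp90b1, Calr, Canx and Pdia6. The windows of Pdia4, Xbp1 and Atf4 held no exact match. The stretches around the matches are printed below on the gene's strand, with the outer 5 bases at each end of the element in capitals.
Hspa5, chr2:34771995-34772063, plus strand: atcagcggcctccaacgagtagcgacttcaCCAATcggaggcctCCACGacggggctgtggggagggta
Hsp90b1, chr10:86705618-86705686, minus strand: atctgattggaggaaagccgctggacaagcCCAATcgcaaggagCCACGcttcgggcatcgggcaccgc
Hsp90b1, chr10:86705513-86705581, minus strand: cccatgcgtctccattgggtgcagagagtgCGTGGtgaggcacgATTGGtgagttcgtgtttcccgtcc
Calr, chr8:84847055-84847123, minus strand: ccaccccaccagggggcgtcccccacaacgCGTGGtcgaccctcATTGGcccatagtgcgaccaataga
Canx, chr11:50325780-50325848, minus strand: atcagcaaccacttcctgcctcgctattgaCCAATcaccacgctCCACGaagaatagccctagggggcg
Pdia6, chr12:17266461-17266529, plus strand: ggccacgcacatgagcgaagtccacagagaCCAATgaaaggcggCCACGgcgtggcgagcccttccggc

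Hsp90b1 held the element in both orientations, 212 to 194 and 107 to 89 bases before its start. The Hspa5 element lay nearest to a start, at 65 to 47 bases, and those of Pdia6, Canx and Calr at 98 to 80, 145 to 127 and 162 to 144 bases. None of the 8 windows held ERSE-II (the blocks ATTGG and CCACG separated by 1 base), the XBP1 site TGACGTGG, the cyclic AMP element TGACGTCA or the ATF4 and C/EBP composite site TGATGNAA, which occur in 0.0365%, 0.676%, 1.79% and 3.97% of all windows. A match is a description of letters and does not show binding. Of the 37 genes with an ERSE, 19 were tested here. They included the pathway genes Creld2, Derl3, Dnajc3, Ero1lb and Syvn1 besides the 5 above. Among the 19, log2 fold changes between genotypes were positive for 9 and negative for 10 (of all tested genes, 48.0% and 52.0%), and their median was -0.16 beside -0.04 over all tested genes.

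The coding ends show which chaperones carry a retrieval signal that returns them to the ER. The last 4 codons are in capitals, before the stop codon; the Hsp90b1 stretch spans an intron in the genome.
Hspa5: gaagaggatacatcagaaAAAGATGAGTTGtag
Hsp90b1: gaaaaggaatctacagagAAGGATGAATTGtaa
Calr: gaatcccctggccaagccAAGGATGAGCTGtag
Pdia4: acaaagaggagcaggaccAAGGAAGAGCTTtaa
Pdia6: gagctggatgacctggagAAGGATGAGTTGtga
Canx: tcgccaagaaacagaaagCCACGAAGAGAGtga
Hspa5, Hsp90b1, Calr, Pdia4 and Pdia6 are soluble proteins of the lumen and end in a signal of this kind. That of Pdia4 is a variant that differs from the other 4 in an amino acid; those 4 encode the same signal, in part with different codons. Canx is anchored in the ER membrane and ends otherwise, although it is the relative of Calr with the same lectin role.

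Xbp1 is the member whose activity depends on splicing that a gene count cannot see. The 7-base loop pattern CNGCNGN that IRE1 recognises occurs 20 times up to the end of the coding sequence in the GENCODE transcript. Only pairs 26 bases apart, the length of the known intron, were kept, which left 2. The pair in exon 4 bounds the known intron (chromosome 11, 5524279 to 5524304, plus strand, GRCm38), shown in capitals.
Xbp1, chr11:5524254-5524329: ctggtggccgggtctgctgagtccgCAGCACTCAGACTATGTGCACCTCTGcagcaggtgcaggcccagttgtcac
The deposited counts are per gene, so the Xbp1 values below sum mRNA with and without these 26 bases, and ATF6 cleavage and ATF4 translation are likewise outside what was measured.

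Hspa5 (chromosome 2, 34771970 to 34777547), which encodes BiP, the Hsp70 chaperone of the ER and the main brake on the stress sensors, was by far the most abundant of the 10. Per kilobase of the longest annotated transcript it was at 1000.5 CPM per kb on average over the 6 libraries (552 to 1337), above every library's value for every other member. Atf4 and Calr followed at 279 (215 to 361) and 274 (236 to 338) CPM per kb, then Pdia6 at 215, Xbp1 at 176 and Hsp90b1 at 139.9. Lower still were Pdia4 at 98.3, Creb3l1 at 91.2 and Canx at 66.8 CPM per kb. From Atf4 down to Canx, the ranges of neighbours in this order overlapped. Atf6 was lowest, at 6.38 CPM per kb (5.71 to 7.28), below every library's value for the other 9. By CPM, Hspa5 ranked between 15 and 43 among all genes of a library and took 0.208% to 0.458% of its counts.

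**Figure D1:**
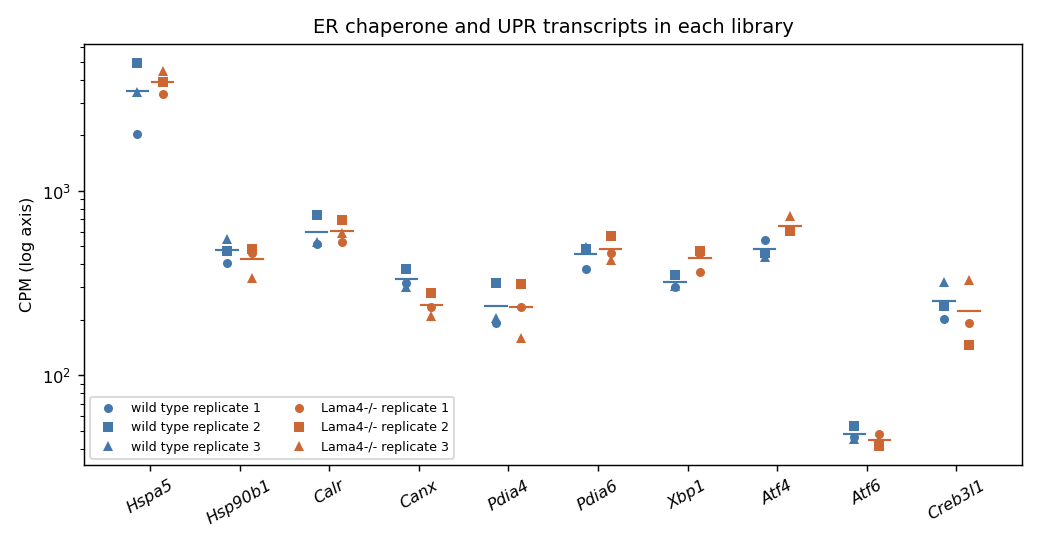
CPM of the 10 genes in every library on a log axis; points are libraries, horizontal bars the mean of each genotype (n = 3). Hspa5 stands above and Atf6 below the rest in all 6 libraries, and the genotypes separate only for Canx, Xbp1 and Atf4.

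None of the 10 genes passed the test between genotypes (background: 0.00691% of tested genes). At an unadjusted p under 0.05 there were 3, Xbp1 and Atf4 on the higher side and Canx on the lower side in Lama4-/-, where 12.8% of all tested genes reached that level (4.45% higher, 8.34% lower). The same 3 genes were the ones whose genotypes did not overlap, 3 of 10 beside 22.3% of all tested genes (10.3% higher, 12% lower). With any 1 library left out, 0 or 1 of the 10 reached an unadjusted p under 0.05. Log2 fold changes were positive for 5 of the 10 and negative for 5 (48.0% and 52.0% of all tested genes), and their median was 0.00 beside -0.04 over all tested genes. The smallest adjusted p of a member was 0.367, for Canx. DESeq2, which called 4.64% of the genes it adjusted, called none of the 10 (smallest adjusted p = 0.193). The authors' deposited table, which lists 6.63% of its genes with an adjusted p under 0.05, also has none of the 10 among them; its smallest value is 0.159, for Atf4.

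**Figure D2:**
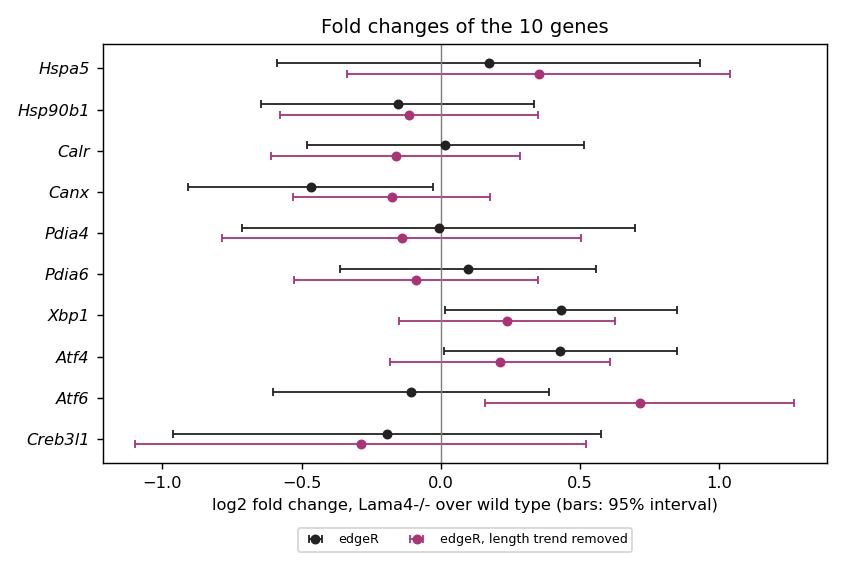
Log2 fold changes of the 10 genes, Lama4-/- over wild type, with 95% intervals, from the edgeR fit as such (black) and with the trend on transcript length removed (purple). The black intervals of Canx, Xbp1 and Atf4 leave out 0 narrowly and the purple ones do not; Atf6 moves from -0.11 to 0.71.

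Among the lumenal chaperones, Hspa5 was at 2029, 4910 and 3427 CPM in wild type replicates 1 to 3 and at 3348, 3860 and 4470 CPM in Lama4-/- replicates 1 to 3. Wild type replicate 1 was the lowest and wild type replicate 2 the highest of all 6, so the Lama4-/- libraries lay inside the wild type range. The log2 fold change was 0.17 (SE 0.33, 95% interval -0.59 to 0.93, edgeR adjusted p = 0.877). It was -0.08 without wild type replicate 1 and 0.51 without wild type replicate 2, which leaves its direction unsettled. Hsp90b1 (chromosome 10, 86690209 to 86705509), the Hsp90 of the ER (GRP94), a chaperone of integrins and of IGF precursors, was at 406, 470 and 548 CPM in wild type. In Lama4-/- it was at 457, 485 and 337 CPM, with replicate 3 below all other libraries and the groups overlapping. Its log2 fold change was -0.16 (95% interval -0.65 to 0.34). The exons of Hsp90b1 overlap 1810014B01Rik on the other strand, which the kit cannot separate, and that gene was counted at 3.54 CPM or less. Those of Pdia6 likewise overlap Atp6v1c2 on the other strand, which was counted at 4.89 CPM or less.

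Of the lectin chaperones, neither passed the test. Calr (chromosome 8, 84841850 to 84846934), the soluble one, was at 516, 739 and 529 CPM in wild type and 525, 693 and 586 CPM in Lama4-/-. These groups overlapped throughout, with a log2 fold change of 0.02 (95% interval -0.48 to 0.51). Canx (chromosome 11, 50293961 to 50325673), the membrane-bound one, was at 317, 378 and 300.1 CPM in wild type and 233, 278 and 208 CPM in Lama4-/-. Every Lama4-/- library lay below every wild type library. The log2 fold change was -0.47 (SE 0.19, 95% interval -0.91 to -0.03), and edgeR gave an adjusted p = 0.367 (unadjusted 0.0405). With the trend on transcript length removed it was -0.18 (95% interval -0.53 to 0.18).

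The disulfide isomerases showed little difference between genotypes beside the spread of their libraries. Pdia4 (ERp72; chromosome 6, 47796141 to 47813430) was at 192, 314 and 203 CPM in wild type and 235, 311 and 159 CPM in Lama4-/-. Its lowest library was Lama4-/- replicate 3 and its highest wild type replicate 2, and the log2 fold change was -0.01 (95% interval -0.71 to 0.70). Pdia6 (P5; chromosome 12, 17266545 to 17284770), an isomerase that works with BiP and damps IRE1, was at 378, 481 and 494 CPM in wild type and 461, 566 and 421 CPM in Lama4-/-. The groups overlapped, with a log2 fold change of 0.10 (95% interval -0.36 to 0.56). For these 2 genes, as for Hspa5, Hsp90b1 and Calr, the intervals leave room for changes of about the size measured for Canx, so no likeness between the genotypes is shown.

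Among the transcription factors, Xbp1 (chromosome 11, 5520659 to 5525893) was at 302, 348 and 305 CPM in wild type and 362, 472 and 454 CPM in Lama4-/-. All 3 Lama4-/- libraries were above all 3 wild type libraries, though Lama4-/- replicate 1 was close to wild type replicate 2. The log2 fold change was 0.43 (SE 0.18, 95% interval 0.01 to 0.85), and edgeR gave an adjusted p = 0.379 (unadjusted 0.0444). Atf4 (chromosome 15, 80255184 to 80257541), the effector of PERK and of the other eIF2alpha kinases, was at 543, 461 and 435 CPM in wild type and 603, 607 and 730 CPM in Lama4-/-. The groups did not overlap, and the log2 fold change was 0.43 (SE 0.18, 95% interval 0.01 to 0.85; unadjusted p = 0.0457, adjusted p = 0.382 in the edgeR test). With the length trend removed the log2 fold change was 0.24 for Xbp1 and 0.21 for Atf4, with intervals that include 0. Red cell and neutrophil markers also reached higher sums in Lama4-/-, as given above. Their part in these values, and that of the plasma cell and B cell markers in Xbp1, was not tested. In such sorted bulk samples, more cells of a type and more RNA per cell cannot be told apart.

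Atf6 (chromosome 1, 170704674 to 170867771), the sensor that is itself the precursor of a transcription factor, was at 46.1, 52.7 and 44.9 CPM in wild type and 47.7, 41.4 and 44.4 CPM in Lama4-/-. Its 6 libraries stayed close together and the groups overlapped. The log2 fold change was -0.11 (95% interval -0.60 to 0.39) as measured and 0.71 (95% interval 0.16 to 1.27) with the length trend removed. For that value edgeR gave an adjusted p = 0.543 (unadjusted 0.0185). Creb3l1 (chromosome 2, 91982328 to 92024502) was at 202, 238 and 320 CPM in wild type and 191, 146 and 328 CPM in Lama4-/-. Replicate 3 was the highest library in both groups and Lama4-/- replicate 2 the lowest of all. The 6 osteoblast markers summed to 5946 to 8538 CPM in wild type against 6344 to 12471 CPM in Lama4-/-; their part in the Creb3l1 values was not tested. The log2 fold change of Creb3l1 was -0.19 (SE 0.33, 95% interval -0.96 to 0.57), from -0.59 without Lama4-/- replicate 3 to 0.03 without Lama4-/- replicate 2.

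Fold changes in these libraries followed transcript length, and the 10 genes span much of that range. Over all tested genes with a known length, the median log2 fold change was 0.27 in the length decile that holds Xbp1 (2129 bases) and Atf4 (2019 bases). It was -0.38 in the decile that holds Canx (4281 bases) and -0.92 in the decile of Atf6 (7246 bases). Xbp1, Atf4 and Canx lay on the same side of 0 as the genes of their length, while Atf6 was close to 0 where transcripts of its length were mostly lower. Hspa5 (3672 bases) was at 0.17 where its decile had a median of -0.15.

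**Figure D3:**
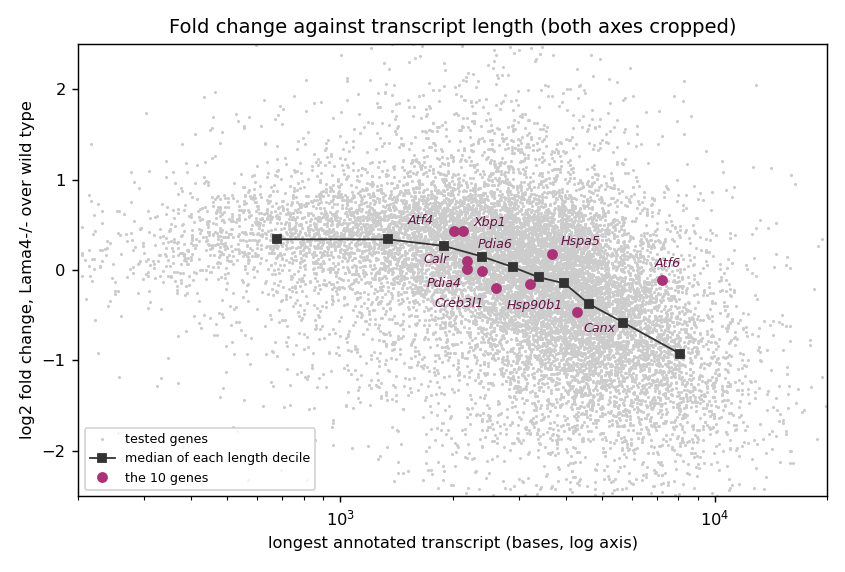
Log2 fold change, Lama4-/- over wild type, against the longest annotated transcript (log axis) for the tested genes within the cropped axes (grey), with the median of each length decile (black squares) and the 10 genes (purple). The decile medians go from 0.34 to -0.92; Canx, Xbp1 and Atf4 lie near the line and Atf6 above it.

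Ratios between 2 genes of 1 library do not depend on how libraries are scaled. 5 ratios were compared, chosen after the values were seen, and with 3 libraries against 3 the exact two-sided permutation test cannot give a p below 0.10. The adjustment over the 5 does not cover that choice, so these p-values are descriptions. The count of Canx per count of Calr was 0.615, 0.511 and 0.567 in wild type and 0.444, 0.401 and 0.356 in Lama4-/-. All 3 Lama4-/- ratios were lower, a difference of -0.50 on the log2 scale (exact permutation p = 0.10, adjusted over the 5 ratios 0.167). With the length trend removed the difference was -0.02. Xbp1 per Atf6 was 6.56, 6.60 and 6.79 in wild type, nearly constant, and 7.59, 11.4 and 10.2 in Lama4-/-. Atf4 per Atf6 was 11.8, 8.75 and 9.69 against 12.6, 14.7 and 16.4. Both ratios were higher in every Lama4-/- library, by 0.53 and 0.54 on the log2 scale (exact permutation p = 0.10 each, adjusted 0.167), and with the length trend removed the differences were -0.47 and -0.50. Hspa5 per Hsp90b1 went from 5.0 to 10.4 in wild type and from 7.32 to 13.3 in Lama4-/-, and Pdia6 per Pdia4 from 1.53 to 2.43 and from 1.82 to 2.64. In these 2 ratios the genotypes overlapped (exact permutation p = 0.40 and 0.70).

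**Figure D4:**
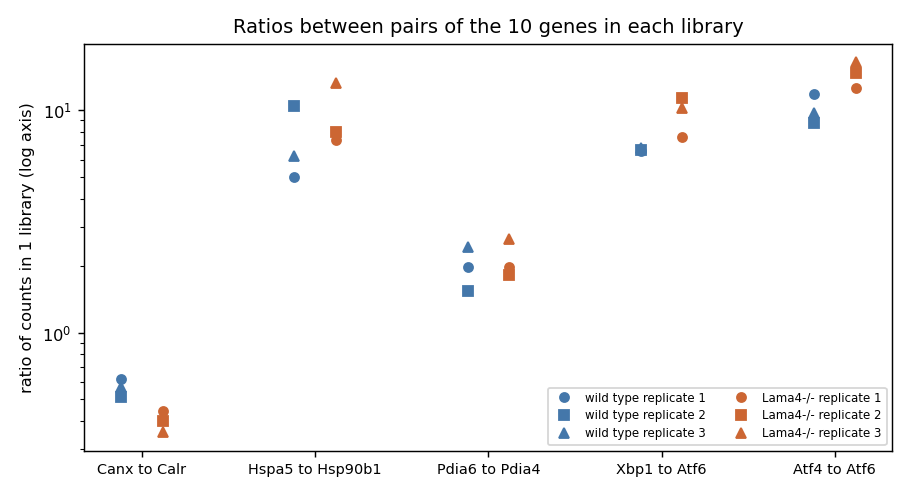
Ratio of counts of 2 genes within each library, on a log axis; points are libraries. Canx to Calr is lower, and Xbp1 to Atf6 and Atf4 to Atf6 are higher, in all 3 Lama4-/- libraries; the other 2 ratios overlap.

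The wider pathway was read from 10 lists of other genes, 175 in all, of which 170 were tested. No list gene passed the adjustment in the edgeR test (smallest adjusted p = 0.237); 32 had an unadjusted p under 0.05, 17 higher and 15 lower, where all tested genes gave 12.8% (4.45% higher, 8.34% lower). Of the 170, 97 (57.1%) had a positive log2 fold change, beside 48.0% of all tested genes, with a median of 0.09. Genotypes did not overlap on the higher side for 30 (17.6%) and on the lower side for 18 (10.6%), where all tested genes gave 10.3% and 12%. DESeq2 called 15 of them, 7 higher and 8 lower, beside 169 higher and 518 lower among the 14465 tested genes.

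Other ER chaperones and co-chaperones had 16 of 22 positive log2 fold changes and a median of 0.12. Their most abundant member was Serpinh1 (HSP47), the chaperone of procollagen, with means of 4627 ± 1663 CPM in wild type against 7338 ± 1733 CPM in Lama4-/- (SD, n = 3), a log2 fold change of 0.67 (SE 0.31, adjusted p = 0.42 in the edgeR test). Fkbp10, a prolyl isomerase that acts on collagen, was at 812 ± 156 against 1066 ± 194 CPM. The groups of both overlapped. The 3 genes named from this list as readouts of the response had lower means in Lama4-/-, none past the test. Dnajb9 (ERdj4), a co-chaperone that XBP1 induces, was at 97.3 ± 20.7 against 84.8 ± 16.6 CPM. Sdf2l1 was at 38.3 ± 8.85 against 26.9 ± 7.73 CPM. Hyou1, the ER nucleotide exchange factor of BiP, was at 30.8 ± 13.3 against 22.0 ± 17.1 CPM, with Lama4-/- replicate 1 at 2.46 CPM; its log2 fold change was -0.48, and 0.066 without that library. All 3 had overlapping groups. Creld2 and Dnajc3, also in this list and with an ERSE, did not have lower means. Creld2 was at 112 ± 18.1 against 126 ± 18.5 CPM and Dnajc3 at 235 ± 35.8 against 237 ± 37.0 CPM, with overlapping groups.

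Disulfide isomerases and oxidases outside the 10 had 11 of 16 positive log2 fold changes and a median of 0.25. P4hb (PDI), also the beta subunit of collagen prolyl hydroxylase, averaged 1706 ± 384 CPM in wild type against 2322 ± 361 CPM in Lama4-/-, with overlapping groups. Pdia3 (ERp57), the partner of Calr and Canx, was at 715 ± 107 against 885 ± 93.7 CPM, with every Lama4-/- library above every wild type library and a log2 fold change of 0.31 (SE 0.19, adjusted p = 0.563 in the edgeR test).

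Of the sensors and their proteases, 4 of 8 had a positive log2 fold change. Groups did not overlap for 1 gene on each side (12.5% each), where all tested genes gave 10.3% higher and 12% lower. These shares are close, so Mbtps2 and Bloc1s1 do not set this list apart. Both were named after their values were seen. Mbtps2, the protease of the second cut in ATF6, was at 10.7, 7.19 and 8.41 CPM in wild type. In Lama4-/- it was at 0, 3.08 and 1.597 CPM, a log2 fold change of -2.49 at levels below those of the 10 genes. Bloc1s1, whose mRNA IRE1 is known to cleave, was at 8.59 ± 2.68 against 13.4 ± 1.39 CPM (edgeR adjusted p = 0.499 and 0.597). Ern1 was at 18.4 ± 6.31 against 12.9 ± 8.10 CPM and Eif2ak3 at 31.9 ± 4.95 against 35.3 ± 7.51 CPM. The Golgi protease Mbtps1, which makes the first cut in ATF6, was at 151 ± 65.8 against 139 ± 10.3 CPM, with wild type replicate 2 at 226 CPM. Eif2s1, the initiation factor subunit that PERK phosphorylates, was at 53.3 ± 9.70 against 62.0 ± 4.30 CPM. In all 4 the genotypes overlapped. Relatives of Creb3l1 were measured too. Creb3l2 (BBF2H7), the cartilage factor that drives COPII export of collagen, was at 201, 222 and 220 CPM in wild type and 90.9, 120 and 63.0 CPM in Lama4-/-. Creb3 was at 110.1, 117 and 94.4 against 164, 157 and 160.1 CPM. The genotypes were apart for both, in opposite directions, with log2 fold changes of -1.23 (SE 0.25) and 0.58 (SE 0.17). The edgeR adjusted p was 0.237 and 0.263, while DESeq2 gave 0.00174 and 0.0394. With the length trend removed the log2 fold changes were -0.45 and 0.34.

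Targets of ATF4 and the integrated stress response had 9 of 22 positive log2 fold changes and a median of -0.07. Atf3, a stress-induced factor downstream of ATF4, was at 808 ± 61.7 against 1386 ± 363 CPM with groups apart. Its log2 fold change was 0.78 (SE 0.23, adjusted p = 0.267 with edgeR and 0.0459 with DESeq2). With the length trend removed it was 0.56 (edgeR adjusted p = 0.590). Ppp1r15a (GADD34), the phosphatase subunit that ends the response, was at 682 ± 216 against 923 ± 126 CPM. Ddit3 (CHOP), the factor of prolonged ER stress, was at 29.3 ± 13.8 against 28.9 ± 4.87 CPM, with wild type replicate 1 at 45.1 CPM. Genes of ER-associated degradation had 13 of 22 positive values and a median of 0.15. Herpud1 was at 398 ± 43.9 against 533 ± 91.3 CPM and Selenos at 255 ± 39.1 against 381 ± 65.2 CPM. Both had every Lama4-/- library above every wild type library, and neither passed (edgeR adjusted p = 0.419 and 0.318).

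In the translocon and signal peptidase list 14 of 22 values were positive (median 0.16), with Ssr3 at 554 ± 125 against 532 ± 65.5 CPM and Sec61a1, the channel itself, at 433 ± 125 against 517 ± 71.9 CPM. In the list of N-glycan transfer and the folding cycle 11 of 19 were positive (median 0.16). Its 2 most abundant genes are subunits of the oligosaccharyltransferase: Ddost was at 424, 476 and 426 CPM in wild type and 627, 705 and 847 CPM in Lama4-/-, and Rpn2 at 572 ± 83.6 against 636 ± 108 CPM. Ddost had groups apart and a log2 fold change of 0.72 (SE 0.18, adjusted p = 0.238 with edgeR and 0.0119 with DESeq2). With the length trend removed it was 0.52 (edgeR adjusted p = 0.542). Rpn2 had groups that overlapped. COPII export genes had 9 of 17 positive values (median 0.01). Among them the KDEL receptor Kdelr3, which returns the soluble chaperones shown above to the ER, was at 364, 329 and 359.6 CPM in wild type and 637, 524 and 649.6 CPM in Lama4-/-. Its groups were apart, with a log2 fold change of 0.78 (SE 0.17; adjusted p = 0.237 with edgeR and 0.00288 with DESeq2), and 0.48 with the length trend removed. Sar1a, the GTPase that starts the COPII coat, was at 401, 433 and 432 CPM in wild type and 499, 509 and 669 CPM in Lama4-/-, again with groups apart.

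Chaperones of the cytosol, which belong to the heat shock response and not to that of the ER, had 8 of 19 positive values and a median of -0.08. Hsp90ab1 was at 951 ± 143 against 876 ± 78.6 CPM with overlapping groups, and Dnajb1 at 622 ± 141 against 838 ± 43.0 CPM with groups apart (edgeR adjusted p = 0.437).

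**Figure D5:**
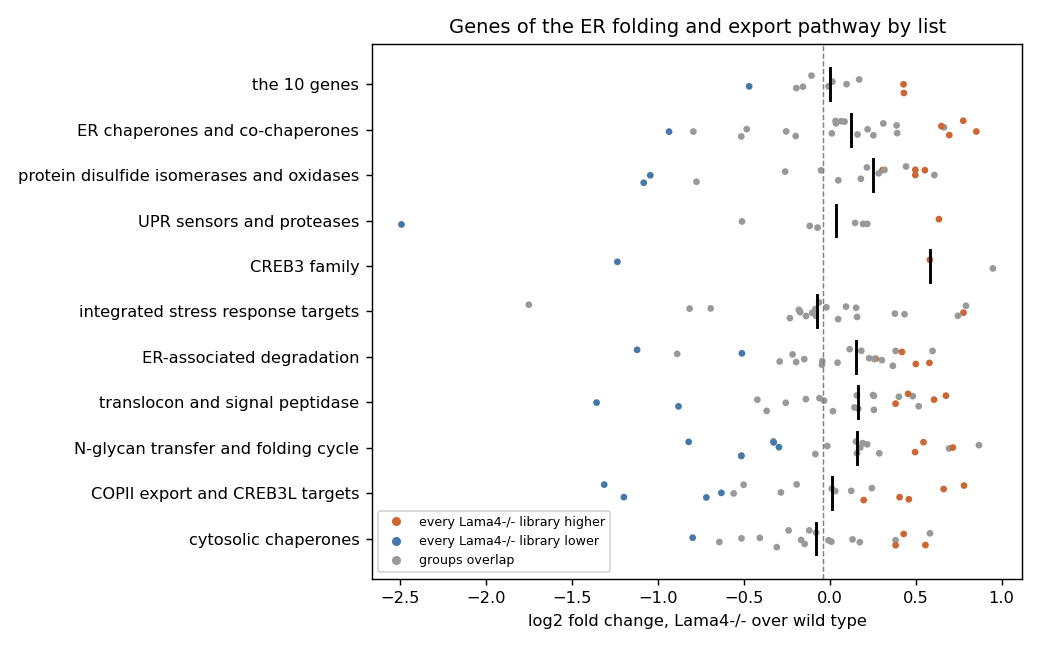
Log2 fold changes, Lama4-/- over wild type, of the tested genes of each list; points are genes, coloured by whether the genotypes overlap, black bars the list medians and the dashed line the median of all tested genes (-0.04). The 10 genes lie between -0.47 and 0.43, and most lists hold genes on both sides of 0.

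The genes whose course over the 6 libraries was nearest to that of Hspa5 were taken as those with the smallest root mean square distance of centred log2 CPM, among tested genes of at least 10 CPM. They were Slc39a8 (distance 0.09), Rab5a (0.10), Tpm3-rs7 (0.10), Arfgap2 (0.11) and Rabif (0.11). None of the other 9 members or the 170 tested list genes was among these 5. Those genes are a small part of the 14465 tested, so little can be read from their absence. All 5 were lowest in wild type replicate 1, with genotypes that overlapped. Both traits follow from the choice, which used the course of Hspa5 over these same libraries.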

How the data were processed

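Per the labels' protocols, cDNA came from a SMART-Seq low-input kit, which does not mark strand, and Nextera XT libraries were read as single ends of 75 bases. The submitters' processing notes name GRCm38 (mm10), STAR 2.6.1d, featureCounts and DESeq2, without parameters. In the 1 table deposited, the headings of its blocks appear swapped: whole numbers (100% of values) stand under the heading for normalized values, and they were taken as the deposited raw counts. The block headed raw is a deposited signal, those counts times a constant per library (0.708 to 1.98), left out of all tests. The remaining columns are, per the file headers, the authors' mean signal, log2 fold change, Wald score and p-value with adjusted p-value (NA for 15311 genes). 25451 identifiers (99.8%) were found in GENCODE M21 (GRCm38), which gave positions and longest transcripts.

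In R 4.3.3, edgeR 4.0.16 (filterByExpr, TMM, robust quasi-likelihood F test, 3 libraries against 3, no covariate) was fitted to all genes, with Benjamini-Hochberg adjustment at 0.05. CPM uses TMM-scaled totals, and a standard error is the log2 fold change over the root of F. Between libraries of 1 genotype the chi-square per gene was at least 42.6, far beyond sampling noise. The procedure was run on simulated counts with set changes, at the dispersions estimated from these data and at a lower one. The check it had to pass used the lower one, far below the common dispersion of these data (0.393). That check therefore does not show which changes the test can find at the spread of these libraries. The recovery at the estimated dispersions is not reported here. Alternatives were DESeq2 1.42.0, limma 3.58.1 voom, 2 other scalings, 2 other filters, a replicate block, each library left out, and a lowess length trend (span 0.3) as offset. The genes and lists were chosen with earlier results of these data known. Named list genes are the 2 most abundant of each list, any past the threshold, and 7 well-known sensors and readouts. Outside this rule, Mbtps2 and Bloc1s1 and further genes in the closing observations (Asns, Sec16a, Sec24a, Sec23a, Sec63, Edem3, Sel1l and Uggt1) were named after their values were seen. Creld2, Derl3, Dnajc3, Ero1lb and Syvn1 were named for their ERSE, and the values of Creld2 and Dnajc3 were added after they were seen.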

Additional observations from a re-analysis of the deposited data

How the results depend on the processing

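None of the 10 genes passed an adjusted p of 0.05 under any of the 14 alternatives (smallest adjusted p by alternative 0.193 with DESeq2 to 0.643 without wild type replicate 3). The number of genes called over the whole table was 1 by edgeR, 0 with upper-quartile scaling, limma voom, the replicate block or the length trend removed, 12 without a filter, 741 with DESeq2, and 0 to 1 with each library left out. With each library left out, the median log2 fold change of the 10 genes ran from -0.10 to 0.18, the highest without wild type replicate 2. Replicate numbers are shared between the genotypes, but same-numbered libraries deviated together by r = 0.0400, 0.132 and 0.0539 across genes, so no pairing was assumed; every library did correlate best with its own number, a hint from the data and not the design. With the replicate block, 0 of the 10 genes passed and 2 had an unadjusted p under 0.05. The count of 3 at an unadjusted p under 0.05 was 1 with the length trend removed (Atf6 in place of the others), 0 without a filter and 0 to 1 with a library left out.

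The direction held under all alternatives for Hsp90b1, Canx, Xbp1 and Atf4. It changed as follows for other named genes, none of them called; the cause was not tested. With the length trend removed the log2 fold change was -0.16 for Calr, -0.089 for Pdia6, 0.71 for Atf6, 0.62 for Mbtps1 and 0.28 for Ern1. Upper-quartile scaling gave 0.087 for Pdia4, 0.080 for Ddit3 and 0.036 for Ssr3. Pdia4 was at 0.0061 without a filter, 0.0015 with 5 CPM in 3 libraries and 0.098 with limma voom, where Mbtps1 was at 0.027; the replicate block gave 0.073 for Ddit3. With each library left out in turn the log2 fold change ran from -0.082 to 0.51 for Hspa5, -0.10 to 0.20 for Calr, -0.27 to 0.25 for Pdia4, -0.037 to 0.19 for Pdia6, -0.59 to 0.031 for Creb3l1, -0.95 to 0.066 for Hyou1, -0.30 to 0.30 for Mbtps1, -0.019 to 0.28 for Eif2ak3, -0.23 to 0.46 for Ddit3 and -0.16 to 0.14 for Ssr3.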

Other observations

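The 32 list genes with an unadjusted p under 0.05 had different median transcript lengths in the 2 directions, with ranges that overlapped. The 17 with higher values in Lama4-/- had a median longest transcript of 1884 bases (1025 to 4315), among them Kdelr3, Ddost, Selenos, Creb3, Atf3 and Asns, the asparagine synthetase that ATF4 induces. The 15 with lower values had a median of 6032 bases (2803 to 9033), among them Creb3l2, the COPII genes Sec16a, Sec24a and Sec23a, the translocon gene Sec63 and the degradation genes Edem3 and Sel1l. With the length trend removed, the median log2 fold change went from 0.61 to 0.49 for the higher genes and from -0.93 to -0.45 for the lower ones. All 17 higher genes and 14 of the 15 lower genes stayed on their side of 0. The exception was Uggt1, the sensor that returns misfolded glycoproteins to Calr and Canx, which went from -0.51 to 0.47. These genes were chosen by their values here, so the contrast in length is a description. The same choice favours signs that stay, so the kept signs do not show changes apart from length. With the length trend removed, none of these genes was called.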
